A study of Mus musculus with 8 samples.

Results

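The translation initiation factors (eIFs) and elongation factors (eEFs) were examined in liver RNA, with 4 Control mice and 4 Mc1r LKO mice. They were the genes whose symbol is Eif followed by 1 to 6, or Eef followed by 1 or 2, with the letters and digits that name a subunit, except Eif2ak2, Eif2s3x and Eif2s3y. This gave 66 genes of the 55487 counted, and 61 of them were abundant enough to be among the 13400 genes tested. The question was whether they rise with the genes of the ribosomal proteins. All mice were male, carried a floxed Mc1r gene (Mc1r fl/fl, the gene of the melanocortin 1 receptor), and were fed a Western-type diet for 12 weeks before a fast of some hours. Mc1r LKO mice also carried a Cre transgene under the albumin promoter (AlbCre/+), which acts in hepatocytes, and the age-matched Control mice carried no Cre, so that Cre and the loss of Mc1r cannot be told apart. RNA was taken from whole liver, where fewer cells of a type and less RNA per cell cannot be told apart.

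Initiation factors bring the small ribosomal subunit and the initiator tRNA to the start codon of an mRNA, and elongation factors carry the aminoacyl-tRNAs to the ribosome and move it along. In the liver, which makes most plasma proteins, they are among the well expressed genes of the cytosol. The mRNAs of ribosomal proteins and of several factors start with a C followed by a tract of pyrimidines, the terminal oligopyrimidine (TOP) motif, through which mTORC1 controls their translation. The 9 members taken as TOP mRNAs were Eef1a1, Eef1b2, Eef1d, Eef1g, Eef2, Eif3e, Eif3f, Eif3h and Eif4b. The 79 cytosolic ribosomal protein genes were the list against which the factors were read.

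The bases around the annotated start of some of these genes are shown because this motif is what the TOP members are known to share with ribosomal protein genes. Each line is the sense strand 5′ to 3′ from 5 bases before to 25 bases after the start that RefSeq annotates on GRCm38.p6, and capitals mark runs of at least 8 bases that are each C or T. The 5 TOP members with an entry come first, followed by Eif1, a member outside the TOP list, and Eif4g3, the 1 member that was lower in Mc1r LKO mice at an unadjusted p under 0.05.
Eef1a1 (chr9:78481700-78481729, minus strand): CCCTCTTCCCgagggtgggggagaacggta
Eef1b2 (chr1:63176826-63176855, plus strand): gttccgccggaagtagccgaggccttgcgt
Eef2 (chr10:81176626-81176655, plus strand): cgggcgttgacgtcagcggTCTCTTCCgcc
Eif3f (chr7:108934410-108934439, plus strand): gCTCTCTCTCTTTCTCggcaagatggcttc
Eif4b (chr15:102073768-102073797, plus strand): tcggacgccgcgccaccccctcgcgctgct
Eif1 (chr11:100319944-100319973, plus strand): cacaggggcggctatataagtgaatacagg
Eif4g3 (chr4:137993450-137993479, plus strand): gcggccgtcctgccggactgctggaggcgg
The longest run was 15 bases in Eif3f and 10 bases in Eef1a1. It was 4 bases in Eef1b2 and 7 in Eif4b. In each of these lines the annotated start can lie away from the true cap site, so that the bases shown can be promoter. Whether a run lies at the start of an mRNA, that of Eef1a1 included, was not tested. A run of at least 8 was present in this window for 3 of the 5 TOP members, for 6 of the 42 other tested members with an entry and for 25 of the 58 ribosomal protein genes with an entry (43.1%), beside 11.9% of all 27025 genes of the table.

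Most translation factor mRNAs had slightly higher levels in Mc1r LKO mice, and no single one passed the test across all genes. Of the 61 members tested, 49 had a log2 fold change (Mc1r LKO over Control) above 0, and their median was 0.10, beside 6412 of 13400 genes and a median of -0.01 over all genes tested. The changes ran from -0.27 to 0.50 on the log2 scale. The log2 fold change was above 0 for each of the 5 elongation factors proper under every scaling tried. It was above 0 for each of the 14 eIF3 genes as well, of which 10 stayed above 0 with library size alone. Without Mc1r LKO mouse 182, Eif3a, Eif3d, Eif3j1 and Eif3l fell below 0. Of the 11 cap-binding and helicase factors, 7 were above 0. The log2 fold change of the ribosomal protein genes was above 0 in 79 of 79 cases, with a median of 0.27.

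After Benjamini-Hochberg adjustment of the quasi-likelihood test of edgeR, 0 members had an adjusted p under 0.05 and the lowest adjusted p of a member was 0.734, in a comparison where 0 of 13400 genes passed (0%). DESeq2 and limma-voom also called 0 members at that threshold, and the lowest adjusted p of a member in any alternative was 0.168, for Eif3f in DESeq2. At an unadjusted p under 0.05, 10 members were higher in Mc1r LKO mice, beside 3.86% of all genes, and 1 was lower, beside 2.87%. When the size of the log2 fold change had to reach 0.25 in addition, which is the limit the study used, 4 members were higher and 0 lower, beside 2.64% and 2.66% of all genes. Every Mc1r LKO mouse was above every Control mouse in 9 members, beside 2.63% of all genes, and below in 1 member, beside 1.54%. Without TMM, with library size alone as the scale, 3 members were higher (Eef1d, Eif1ad and Eif3f) and 1 lower at the unadjusted p, with 226 higher and 572 lower genes in place of 517 and 384. The 10 members higher at the unadjusted p after TMM were Eef1b2, Eef1d, Eef1g, Eif1, Eif1ad, Eif3f, Eif3g, Eif3i, Eif4ebp1 and Eif5a. Of the 61 members, 50 had a 95% interval of the log2 fold change that lay within 0.5 of 0, a range that includes the median of the ribosomal proteins.

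**Figure D1:**
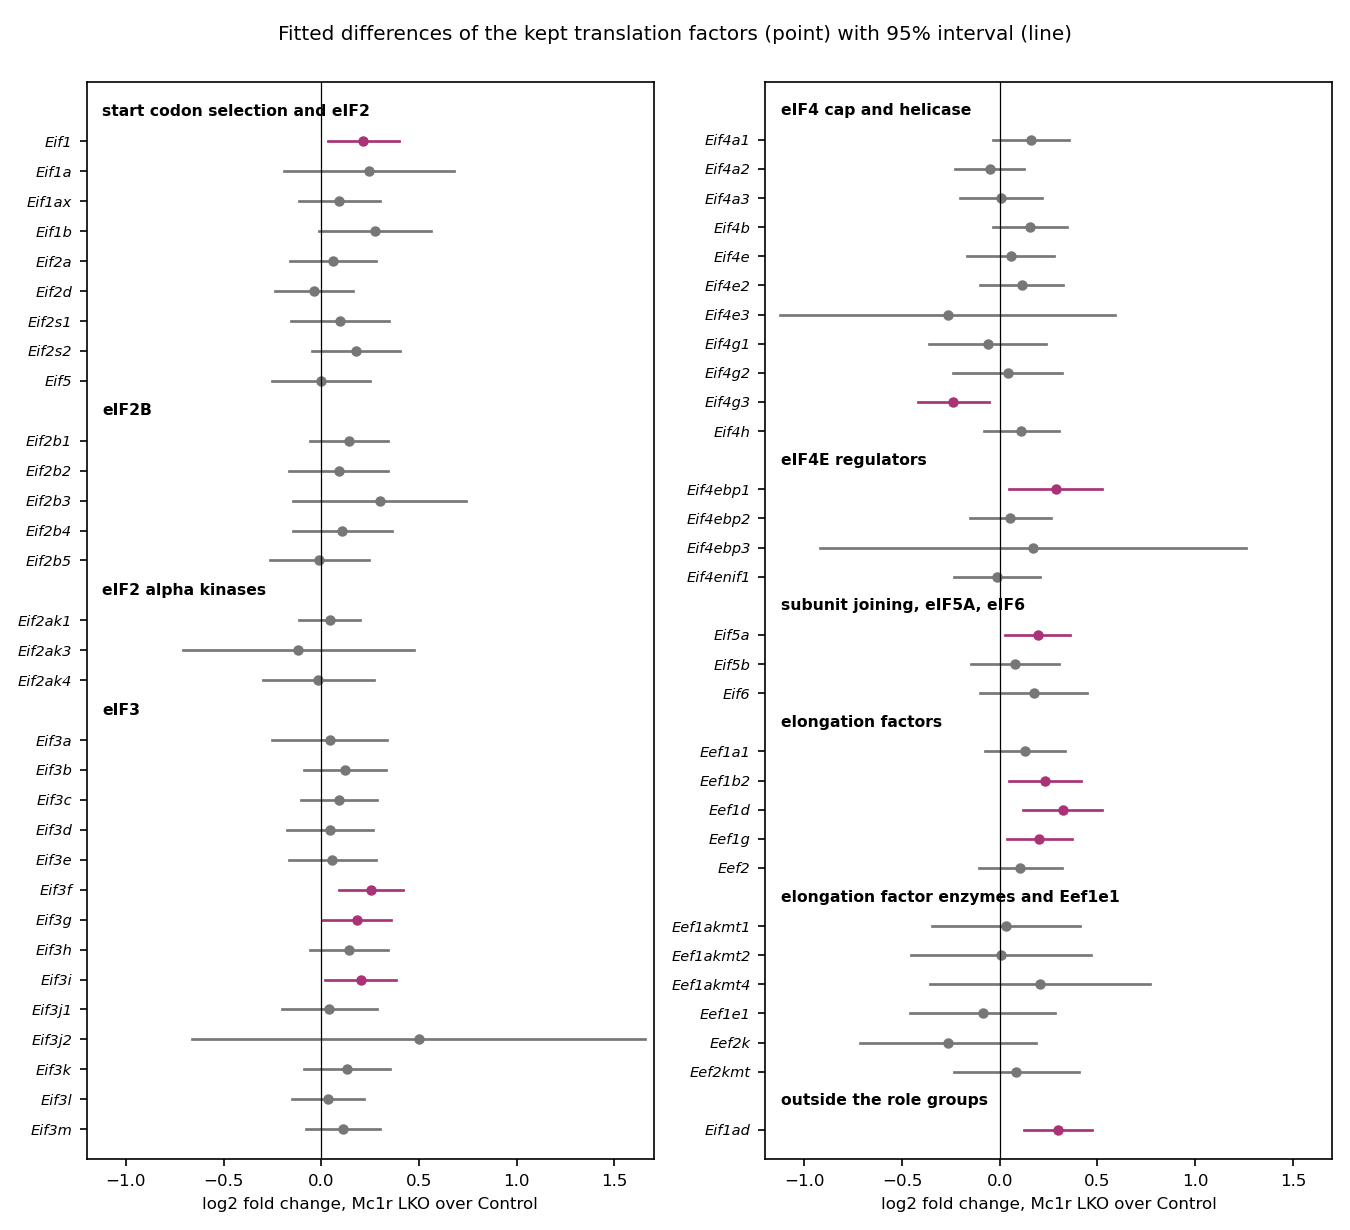
Log2 fold change of each of the 61 tested members, Mc1r LKO over Control, grouped by role, with the 95% interval of the edgeR fit as a line. Magenta marks an unadjusted p under 0.05, which 10 members above 0 and 1 below 0 reached, and grey the others.

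The elongation factors had the highest median level per length of the role groups, 51.6 CPM per kilobase of exon. Eef1a1, which carries aminoacyl-tRNA to the ribosome, had the highest level of all members per length (1043 CPM per kilobase), followed by Eef2, the translocase (353 CPM per kilobase), and Eef1a1 held between 28.6% and 30.2% of the counts of all members in each mouse. The 5 tested elongation factors had log2 fold changes between 0.11 and 0.32, with a median of 0.20. Of the 5, 3 were higher at an unadjusted p under 0.05, beside 3.86% of all genes.

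Eef1d (chromosome 15, 75894205 to 75909556) encodes the delta subunit of eEF1B, the complex that exchanges the guanine nucleotide of eEF1A. Its level was 61.9, 74.6, 58.9 and 62.5 CPM (TMM-normalized, so that libraries of different size can be compared) in Control mice 154, 159, 181 and 193, and 82.2, 81.4, 76.9 and 81.7 CPM in Mc1r LKO mice 141, 156, 157 and 182. The groups did not overlap, and Control mouse 159 lay nearest to them. The difference was 0.32 ± 0.09 on the log2 scale (SE, n = 4 and 4; edgeR unadjusted p = 0.00513).

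Eef1b2 (chromosome 1, 63176825 to 63180486), the beta subunit, was at 118.8, 134.0, 113.1 and 115.7 CPM in Control mice and at 137.4, 140.7, 145.5 and 141.2 CPM in Mc1r LKO mice, in the same order of mice. The groups again did not overlap and mouse 159 was again the highest Control mouse. Eef1b2 had a log2 fold change of 0.23 ± 0.08 (SE, n = 4 and 4; edgeR unadjusted p = 0.0187). Eef1g (chromosome 19, 8967041 to 8978479), the gamma subunit that holds the complex together, was at 80.4, 83.8, 82.5 and 86.8 CPM in Control and 95.6, 98.5, 90.1 and 99.6 CPM in Mc1r LKO mice, with no overlap. Its log2 fold change was 0.20 ± 0.08 (SE, n = 4 and 4; edgeR unadjusted p = 0.0225). The 3 subunits of eEF1B were thus the elongation factors below an unadjusted p of 0.05. In the edgeR likelihood ratio test the unadjusted p was 0.0505 for Eef1b2 and 0.0716 for Eef1g.

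The 2 most abundant factors did not reach that threshold. Eef1a1 was at 2484, 2390, 2638 and 2431 CPM in Control mice and at 2743, 2553, 2639 and 2926 CPM in Mc1r LKO mice. Control mouse 181 exceeded Mc1r LKO mouse 156, so the groups overlapped. The log2 fold change of Eef1a1 was 0.13, with a 95% interval from -0.08 to 0.33 (edgeR unadjusted p = 0.196). Reads of Eef1a1 that also align to its processed pseudogenes were not counted, so that its level is uncertain. Eef2 was at 1129, 1039, 1221 and 1137 CPM in Control and 1246, 1130, 1165 and 1329 CPM in Mc1r LKO mice, also with overlap, and its log2 fold change was 0.11, with a 95% interval from -0.11 to 0.32. The muscle and neuronal paralogue Eef1a2 had a single count, in Control mouse 193, and was not tested.

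The enzymes that act on elongation factors were grouped with Eef1e1, which belongs to the multi-synthetase complex. Of these 6 tested genes, 4 had a log2 fold change above 0 and the median was 0.02 (2 and -0.03 with library size alone), while 0 had an unadjusted p under 0.05. The methyltransferases Eef1akmt1, Eef1akmt2, Eef1akmt4 and Eef2kmt were the 4 above 0, with log2 fold changes of 0.03, 0.01, 0.21 and 0.09, and Eef1e1 stood at -0.09. Eef2k, the kinase that inhibits eEF2, was at 9.09, 6.42, 9.64 and 9.95 CPM in Control and 10.0, 5.98, 6.91 and 6.54 CPM in Mc1r LKO mice, so that Mc1r LKO mouse 141 was the highest of the 8 and the groups overlapped. Its log2 fold change was -0.26, with a 95% interval from -0.71 to 0.19, and -0.44 without mouse 141 (edgeR unadjusted p = 0.0426 in that fit). Eef1akmt3 had at most a few counts per mouse and was not tested.

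**Figure D2:**
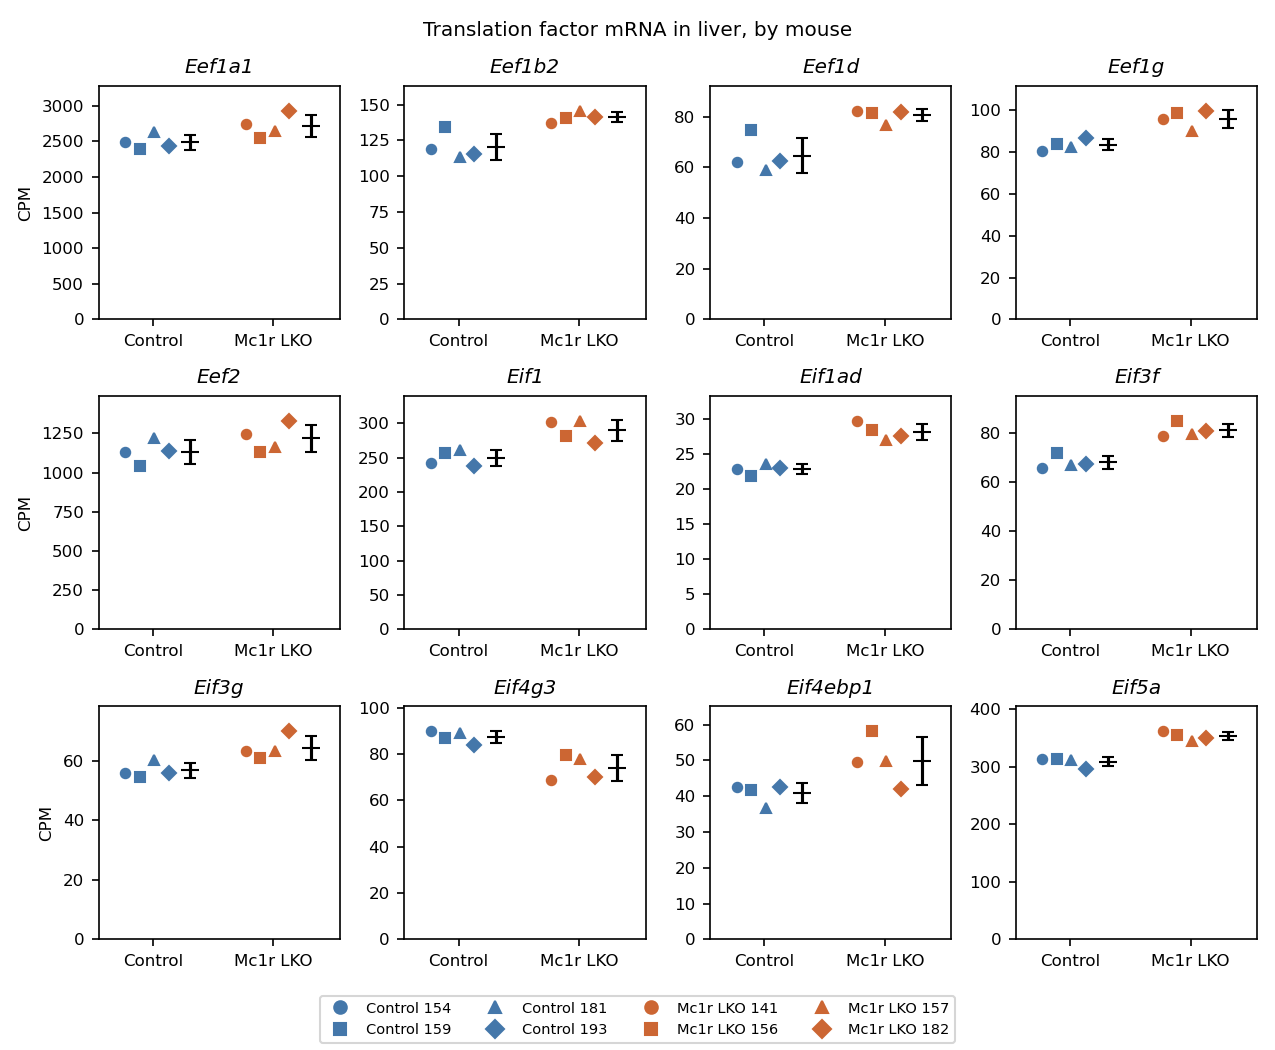
TMM-normalized CPM of 12 members in each mouse, with axes that start at 0; marker shapes name the mice, and the black bar gives the mean and SD of 4 mice. Mc1r LKO mice lay above Control mice without overlap for Eef1b2, Eef1d, Eef1g, Eif1, Eif1ad, Eif3f, Eif3g and Eif5a, and below for Eif4g3.

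eIF3 is the large scaffold on the small ribosomal subunit that recruits the other initiation factors and the mRNA. Each of its 14 tested genes had a log2 fold change above 0, with a median of 0.12 (10 of 14 and 0.07 with library size alone). Of the 14, 3 were higher at an unadjusted p under 0.05, beside 3.86% of all genes. Without Mc1r LKO mouse 182, the log2 fold changes of Eif3a, Eif3d, Eif3j1 and Eif3l were -0.081, -0.018, -0.032 and -0.003. Eif3f (chromosome 7, 108934417 to 108942951) was at 65.9, 72.1, 67.0 and 67.5 CPM in Control and 79.0, 84.9, 79.5 and 80.9 CPM in Mc1r LKO mice. The groups did not overlap. The log2 fold change of Eif3f was 0.25 ± 0.07 (SE, n = 4 and 4; edgeR unadjusted p = 0.00643), and its annotated start is the one with the run of 15 pyrimidines shown above.

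Eif3g, an RNA-binding subunit, was at 55.9, 54.6, 60.3 and 55.8 CPM in Control and 63.3, 60.8, 63.0 and 69.9 CPM in Mc1r LKO mice, and the groups were separated by less than 1 CPM. Its log2 fold change was 0.18 ± 0.08 (SE, n = 4 and 4; edgeR unadjusted p = 0.0447). Eif3i, which binds the Eif3b subunit, was at 62.3, 56.0, 58.9 and 54.6 CPM in Control and 67.2, 61.5, 67.4 and 70.4 CPM in Mc1r LKO mice. Control mouse 154 exceeded Mc1r LKO mouse 156, and the log2 fold change was 0.20 ± 0.08 (edgeR unadjusted p = 0.0327). Both lost the threshold in 9 of the 17 alternatives. The TOP members Eif3h and Eif3e had log2 fold changes of 0.14 (95% interval -0.06 to 0.34) and 0.06 (-0.16 to 0.28), with overlapping groups. Eif3h was the eIF3 subunit with the highest level per length, 60.0 CPM per kilobase. The scaffold subunits Eif3a, Eif3b and Eif3c had log2 fold changes of 0.04, 0.12 and 0.09. Eif3j2, the eIF3 gene with the lowest level, was near 1 CPM and shares most of its sequence with Eif3j1, so that its log2 fold change of 0.50 (95% interval -0.66 to 1.65) is uncertain in both size and sign.

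The factors of start codon selection and eIF2 comprised 9 tested genes, of which 7 had a log2 fold change above 0, with a median of 0.10 (0.05 with library size alone). Eif1 (chromosome 11, 100319885 to 100322096), which keeps the scanning ribosome from starting at a wrong codon, was at 242.6, 257.2, 260.5 and 237.5 CPM in Control and 302.3, 281.8, 303.4 and 270.9 CPM in Mc1r LKO mice. The groups did not overlap, and the log2 fold change was 0.22 ± 0.08 (SE, n = 4 and 4; edgeR unadjusted p = 0.0253). This p stayed under 0.05 in 4 of the 8 fits that left out a mouse. In the edgeR likelihood ratio test the unadjusted p was 0.0717. Eif1 was the most abundant of its role group, at 128.5 CPM per kilobase. Its paralogue Eif1b, at a lower level, had a log2 fold change of 0.27 (95% interval -0.01 to 0.56). The alpha and beta subunits of eIF2, Eif2s1 and Eif2s2, had log2 fold changes of 0.10 and 0.18 without reaching the threshold, and Eif5, the GTPase activator of eIF2, stood at 0.00 (95% interval -0.25 to 0.25).

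Eif1ad (chromosome 19, 5366741 to 5371526) is named for an eIF1A domain and is not known as a canonical initiation factor. It had the lowest unadjusted p of all members. Its level was 22.8, 21.9, 23.6 and 23.0 CPM in Control and 29.7, 28.3, 26.9 and 27.5 CPM in Mc1r LKO mice, and the gap between the groups was wider than the range of the Control mice. Its log2 fold change was 0.30 ± 0.08 (SE, n = 4 and 4; edgeR unadjusted p = 0.00328).

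The exchange factor eIF2B, which recharges eIF2 with GTP, and the kinases that inhibit it through eIF2 alpha showed 0 genes with an unadjusted p under 0.05. Of the 5 eIF2B subunits, 4 had a log2 fold change above 0, with a median of 0.11 (0.06 with library size alone), and the most abundant per length, Eif2b5, stood at -0.01 (95% interval -0.26 to 0.24). Eif2b3 had the widest interval of the 5, with a log2 fold change of 0.30 (-0.14 to 0.74). Of the kinases, Eif2ak1 and Eif2ak4 had log2 fold changes of 0.04 and -0.01. Eif2ak3, the kinase of the endoplasmic reticulum known as PERK, ranged from 17.1 to 42.4 CPM within the Control mice and from 21.6 to 32.4 CPM within the Mc1r LKO mice, so that its log2 fold change of -0.12 had a 95% interval from -0.71 to 0.47.

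Among the factors that bind the cap and unwind the mRNA, 7 of 11 tested genes had a log2 fold change above 0, the median was 0.04 (5 of 11 and -0.01 with library size alone), and 0 were higher at an unadjusted p under 0.05. Eif4g3 (chromosome 4, 137993022 to 138208508), a paralogue of the scaffold Eif4g1, was the 1 member lower at that threshold. It was at 90.0, 86.7, 88.9 and 83.9 CPM in Control and 68.7, 79.7, 77.7 and 69.9 CPM in Mc1r LKO mice, with no overlap. The log2 fold change was -0.24 ± 0.08 (SE, n = 4 and 4; edgeR unadjusted p = 0.0149). Eif4g1 itself, the most abundant of the group per length at 64.3 CPM per kilobase, was at 528.5, 368.8, 540.6 and 479.0 CPM in Control and 423.9, 429.5, 448.3 and 534.4 CPM in Mc1r LKO mice, and its log2 fold change was -0.06 (95% interval -0.36 to 0.24). Eif4b, a TOP member and a cofactor of the helicase eIF4A, was at 228.1, 192.5, 225.0 and 210.6 CPM in Control and 232.6, 233.6, 236.3 and 251.3 CPM in Mc1r LKO mice. The groups of Eif4b did not overlap, although its log2 fold change of 0.16 ± 0.09 did not reach the threshold (edgeR unadjusted p = 0.0988). The helicases Eif4a1 and Eif4a2 had log2 fold changes of 0.16 and -0.05, and the cap-binding protein Eif4e 0.06. Eif4e1b, known from oocytes, had 0 counts in each of the 8 mice.

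Of the 4 tested proteins that bind eIF4E and regulate it, 3 had a log2 fold change above 0, with a median of 0.11 (0.05 with library size alone). Eif4ebp1 (chromosome 8, 27260329 to 27276674), an inhibitor of eIF4E that mTORC1 switches off by phosphorylation and whose gene is a known target of the transcription factor ATF4, was at 42.7, 41.7, 36.7 and 42.6 CPM in Control and 49.5, 58.2, 49.8 and 42.1 CPM in Mc1r LKO mice. Mc1r LKO mouse 182 lay among the Control mice. The log2 fold change was 0.29 ± 0.11 (SE, n = 4 and 4; edgeR unadjusted p = 0.0239), and without Mc1r LKO mouse 156 it was 0.20 (edgeR unadjusted p = 0.0763). Eif4ebp2, the more abundant paralogue at 41.2 CPM per kilobase, had a log2 fold change of 0.05 (95% interval -0.15 to 0.26).

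The remaining factors act at subunit joining and after. Eif5a (chromosome 11, 69916714 to 69921958), which carries the modified amino acid hypusine and helps stalled ribosomes to move on, was the third most abundant member per length, at 139.3 CPM per kilobase. It was at 314.4, 313.1, 311.9 and 296.9 CPM in Control and 362.3, 355.4, 345.0 and 350.7 CPM in Mc1r LKO mice. The groups did not overlap, and the log2 fold change was 0.19 ± 0.08 (SE, n = 4 and 4; edgeR unadjusted p = 0.0277). This p stayed under 0.05 in 4 of the 8 fits that left out a mouse. In the edgeR likelihood ratio test the unadjusted p was 0.0924. Eif5b, the GTPase of subunit joining, and Eif6, which keeps the large subunit apart from the small one, had log2 fold changes of 0.08 (95% interval -0.15 to 0.31) and 0.17 (-0.10 to 0.45). The second eIF5A gene, Eif5a2, had at most 11 counts in a mouse and was not tested. Eif2c5, which fits the name rule but belongs by name to the Argonaute family, had 0 counts in each of the 8 mice.

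**Figure D3:**
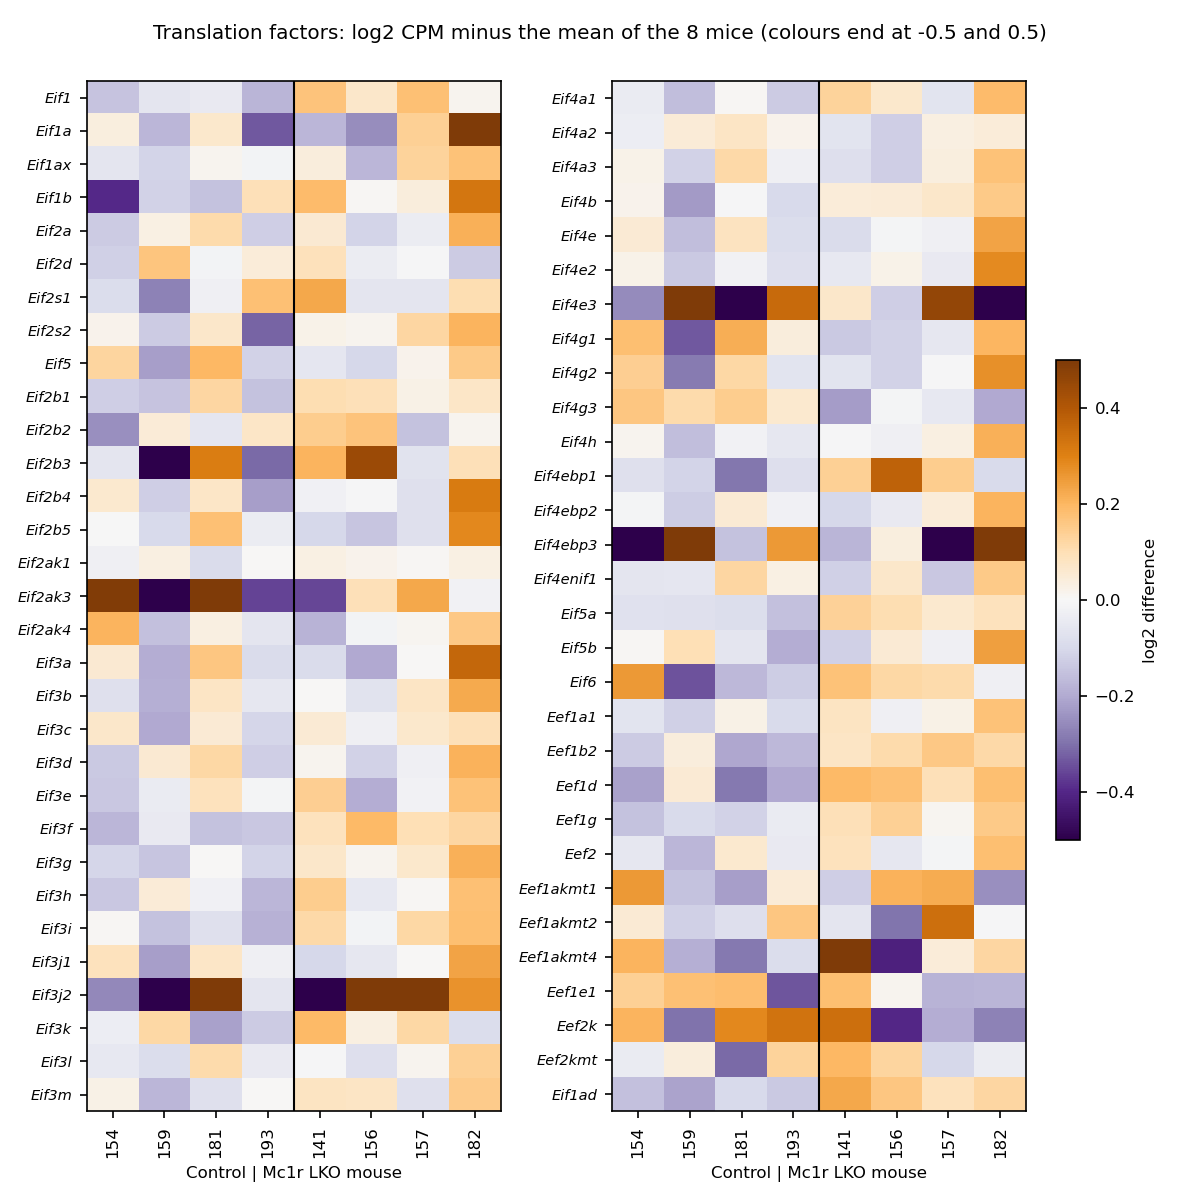
Difference of log2 CPM from the mean of the 8 mice for the 61 tested members, in the order of their roles, with Control mice left and Mc1r LKO mice right of the line; colours end at -0.5 and 0.5. The column of Mc1r LKO mouse 182 is orange over most genes, and this mouse had the highest level of the 4 Mc1r LKO mice in 37 of the 61.

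Ribosomal protein genes were read beside the factors as the list named in the question. Of the 79, 65 were higher at an unadjusted p under 0.05 and 51 also had a log2 fold change of at least 0.25, while 0 were lower. Over all genes these shares were 3.86%, 2.64% and 2.87%. After Benjamini-Hochberg adjustment 0 of the 79 passed in edgeR, and DESeq2 called 3. Every Mc1r LKO mouse was above every Control mouse in 29 of the 79, beside 2.63% of all genes. The fold changes of single genes ran from 0.10 to 0.43 on the log2 scale, so that the largest differences of elongation factors lay within the range of the ribosomal proteins, and the median of the members did not. Rps27a had the smallest p of the list, with a log2 fold change of 0.40 ± 0.08 (edgeR unadjusted p = 0.000781), followed by Rpl13 with 0.37 ± 0.08 and Rps3 with 0.31 ± 0.08. Rpl13 lies on chromosome 8, 302 kb from Mc1r. Many ribosomal protein genes have processed pseudogenes, and reads that also align to those were not counted. The number of ribosomal protein genes higher at an unadjusted p under 0.05 was sensitive to single mice. It fell to 36 when Control mouse 181 was left out, to 41 for Control mouse 154 and to 43 for Control mouse 193. Leaving out Mc1r LKO mouse 141 gave 38, and leaving out Mc1r LKO mouse 156 gave 42.

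**Figure D4:**
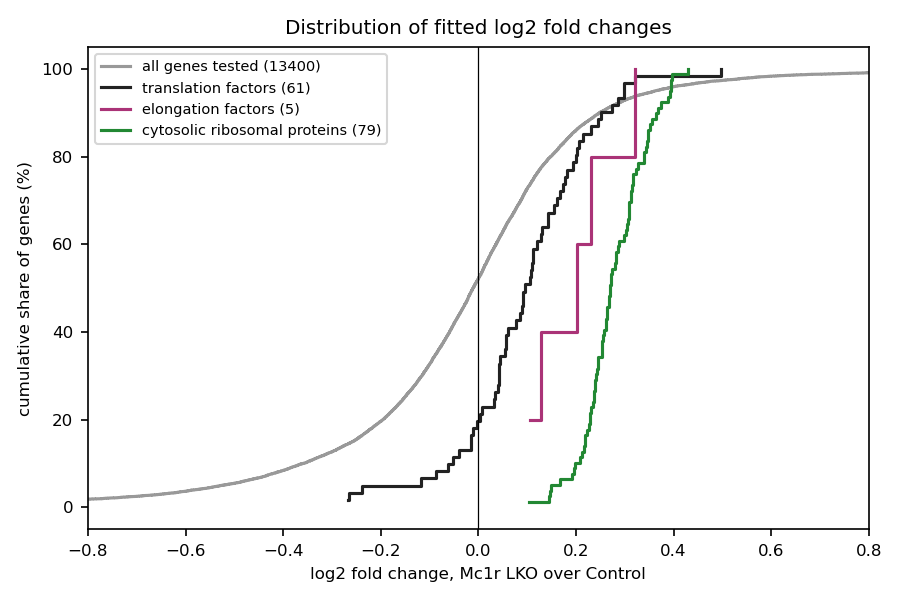
Cumulative share of genes by log2 fold change, Mc1r LKO over Control, for all 13400 genes tested, the 61 members, the 5 elongation factors and the 79 ribosomal protein genes; the axis is cut at -0.8 and 0.8. The curve of the members crosses 50% at 0.10 and that of the ribosomal proteins at 0.27, beside -0.01 for all genes.

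Within the members, those of the TOP list were closer to the ribosomal proteins than the others in their median log2 fold change. The 9 TOP members had a log2 fold change above 0 in 9 cases, with a median of 0.16, 4 with an unadjusted p under 0.05, and 5 without overlap of the groups. The 52 other tested members had a log2 fold change above 0 in 40 cases, with a median of 0.09, 6 higher and 1 lower at an unadjusted p under 0.05. Every Mc1r LKO mouse was above every Control mouse in 4 of these 52, and below in 1. Over all genes, 3.86% were higher and 2.87% lower at the unadjusted p, and 2.63% and 1.54% were above and below without overlap. In level, too, the TOP members were closer to the ribosomal proteins, with medians of 50.6 and 56.4 CPM per kilobase, beside 9.73 in the other members. The 3 tested genes of subunit joining, eIF5A and eIF6 lie outside the TOP list and had a median log2 fold change of 0.17. The TOP list was chosen with earlier results of these data known. The difference between the median log2 fold changes depends on that choice, is a description and was not tested. The order of the mice differed between the TOP members and the ribosomal proteins. Mc1r LKO mouse 182 was the highest of its genotype in 6 of the 9 TOP members and the lowest in 34 of the 79 ribosomal protein genes. Control mouse 159 was the highest Control mouse in 4 of the 9 and in 69 of the 79. Of 8 further TOP mRNAs that encode neither factors nor ribosomal proteins, 6 had a log2 fold change above 0, with a median of 0.15. They include Naca, a subunit of the nascent polypeptide-associated complex (log2 fold change 0.25 ± 0.08, edgeR unadjusted p = 0.0133), and Rack1, a scaffold on the small ribosomal subunit (0.23 ± 0.09, edgeR unadjusted p = 0.0217). Btf3, the partner of Naca, stood at 0.19 (95% interval -0.01 to 0.40).

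The mice of one genotype did not order the factors and the ribosomal proteins alike. Taken as the median over genes of the difference of log2 CPM from the mean of the 8 mice, ribosomal proteins stood at -0.21, 0.07, -0.24 and -0.18 in Control mice 154, 159, 181 and 193 and at 0.22, 0.16, 0.09 and 0.08 in Mc1r LKO mice 141, 156, 157 and 182. The 61 members stood at -0.03, -0.12, 0.01 and -0.08 in the same Control mice and at 0.05, -0.01, 0.02 and 0.16 in the same Mc1r LKO mice. The groups did not overlap in the ribosomal proteins and did overlap in the members, where Control mouse 181 lay above Mc1r LKO mouse 156.

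Control mouse 159 was the highest Control mouse in 69 of the 79 ribosomal protein genes and the lowest Control mouse in 30 of the 61 members. Control mouse 181 was the lowest Control mouse in 35 of the 79 ribosomal protein genes and the highest in 29 of the 61 members. Mc1r LKO mouse 182 was the lowest of its genotype in 34 of the 79 ribosomal protein genes and the highest in 37 of the 61 members. The elongation factors alone stood at -0.13, -0.09, -0.12 and -0.09 in Control and 0.09, 0.11, 0.02 and 0.17 in Mc1r LKO mice, without overlap, and eIF3 at -0.06, -0.15, 0.06 and -0.10 in Control and 0.06, -0.04, 0.04 and 0.18 in Mc1r LKO mice, with overlap. Without mouse 182 the median log2 fold change of the members was 0.06 with 41 of 61 above 0, and that of the ribosomal proteins was 0.31. The first principal component of all tested genes held 37.6% of the variance. On it, mice 182 and 181 scored 59.3 and 27.8, mouse 159 scored -28.2, and the other mice lay between -16.3 and -7.03. Whether the order of the mice in the members follows this axis was not tested.

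**Figure D5:**
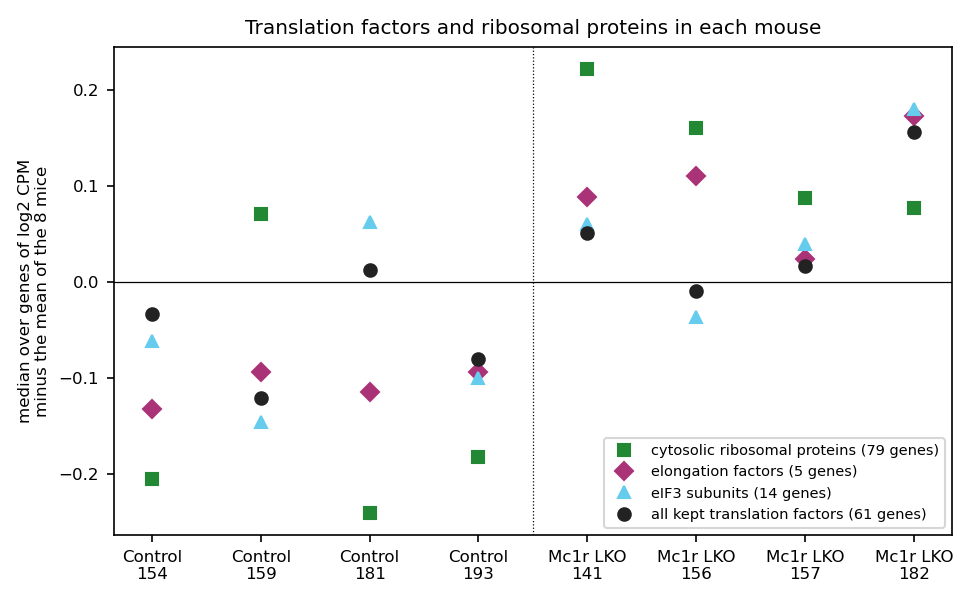
Median over the genes of a group of the log2 CPM minus the mean of the 8 mice, for each mouse, for ribosomal proteins, elongation factors, eIF3 subunits and all tested members. Ribosomal proteins and elongation factors are above 0 in each Mc1r LKO mouse, ribosomal proteins are above 0 in Control mouse 159 as well, and the median of all members is highest in Mc1r LKO mouse 182.

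Cell type markers also differed between these mice. The 8 hepatocyte markers had log2 fold changes above 0 in 8 of 8 cases (median 0.21, 1 with an unadjusted p under 0.05, the enzyme Tat), and Mc1r LKO mouse 182 was the highest, at 0.59 by the same measure. Their summed level ranged from 70650 to 89450 CPM in Control and from 77870 to 104400 CPM in Mc1r LKO mice. The 8 macrophage markers were below 0 in 8 of 8 cases (median -0.44, 1 with an unadjusted p under 0.05, Csf1r), with 1.06 in Control mouse 159 and -0.84 in Mc1r LKO mouse 182. Their summed level ranged from 275.3 to 657 CPM in Control and from 189.7 to 403.1 CPM in Mc1r LKO mice. The 8 markers of either list all passed the filter on low counts. Among all genes tested, 3.86% were higher and 2.87% lower at the unadjusted p. Other marker lists went in both directions. Endothelial markers were above 0 in 1 of 7 cases (median -0.16) and stellate markers in 2 of 7 (median -0.13). Of the tested markers, 4 of 4 cholangiocyte (median 0.37), 5 of 5 erythroid (0.32) and 2 of 3 neutrophil markers (0.39) were above 0. Lymphocyte, skeletal muscle and exocrine pancreas lists had 1 tested marker each. The part of cell composition in the values of the factors and of the ribosomal proteins was not tested.

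Other genes of the translation pathway had list medians from 0.02 to 0.06, beside a median of -0.01 and 47.9% above 0 over all genes tested. Of 26 tested factors of release, recycling, poly(A) binding and modification, 16 had a log2 fold change above 0, with a median of 0.02 and 0 with an unadjusted p under 0.05. The smallest p among them was that of Eefsec, the elongation factor for selenocysteine (log2 fold change 0.20, 95% interval -0.03 to 0.43), followed by Mknk2, a kinase of eIF4E, and Dohh, an enzyme of hypusine synthesis (0.24 and 0.27). Of 22 tested cytosolic aminoacyl-tRNA synthetases, 17 were above 0, with a median of 0.05, and 0 had an unadjusted p under 0.05. Their share above 0 was 77.3%, beside 76.9% of the members outside the TOP list. Sars, Rars and Qars came first, with log2 fold changes of 0.17, 0.14 and 0.14. Of the 10 mitochondrial translation factors 7 were above 0, with a median of 0.06 and 0 below that p, with Tsfm first at 0.19.

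Pathways that control translation were mixed. Of 19 tested genes of the TORC1 pathway, 7 had a log2 fold change above 0, with a median of -0.09. Beside 3.86% of all genes, 2 of the 19 were higher at an unadjusted p under 0.05. Ddit4, an inhibitor of TORC1 that glucocorticoids and stress induce, was at 11.5, 8.27, 11.2 and 7.71 CPM in Control and 18.4, 30.9, 17.5 and 9.30 CPM in Mc1r LKO mice. Mouse 182 lay within the Control range, and the log2 fold change of Ddit4 was 0.97 ± 0.31 (SE, n = 4 and 4; edgeR unadjusted p = 0.00996). Akt1s1, the TORC1 inhibitor PRAS40, had a log2 fold change of 0.22 ± 0.08 (edgeR unadjusted p = 0.0174) without overlap, and Sesn3, a sestrin, stood at -0.33 (95% interval -0.67 to 0.02).

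Of 20 tested targets of the integrated stress response, the pathway downstream of the eIF2 alpha kinases, 12 had a log2 fold change above 0, with a median of 0.03. Beside 3.86% of all genes, 2 of the 20 were higher at an unadjusted p under 0.05. These were the transcription factor Cebpb (0.61 ± 0.22, edgeR unadjusted p = 0.0189), with no overlap of the groups, and asparagine synthetase, Asns (0.99 ± 0.42, edgeR unadjusted p = 0.0402), at between 0.558 and 3.46 CPM. Mthfd2, an enzyme of mitochondrial folate metabolism, stood at 0.49 (95% interval -0.33 to 1.32).

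The 8 libraries held between 10773151 and 24763375 counts, of which the members took between 0.802% and 0.925%, and the lowest count of a member with an unadjusted p under 0.05 was 235 in a mouse. Mc1r had 0 counts in each of the 8 mice, so that the genotype could not be checked from these data. In an exact permutation test of a single gene, 4 mice against 4 allow no two-sided p below 0.0286. Groups without overlap give this value by construction, so that it adds nothing to the lack of overlap. The coefficient of variation within a genotype had a median of 0.091 over the 61 members. Under the 17 alternatives, 41 of the 61 members kept the sign of the fold change, among them the 11 with an unadjusted p under 0.05. Because the 11 were chosen by their p in these same mice, their kept sign adds little. Eif3f, Eef1d and Eif1ad had an unadjusted p under 0.05 in each alternative.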

How the data were processed

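Liver RNA of 4 Control and 4 Mc1r LKO mice was sequenced after poly(A) selection with a stranded kit. The authors trimmed the reads (Trim Galore 0.6.6), aligned them with STAR 2.7.6a, and deposited, for each mouse, the raw counts per gene from featureCounts of Subread 2.0.1, with the strand option for reversely stranded libraries and without normalization. The methods write GRCh38, whereas the table headers name an Ensembl annotation of GRCm38, and coordinates are those of the tables. Read pairs that align to several places or overlap several genes of a strand are left out by the default of that counter, which affects genes with close copies or processed pseudogenes. Groups were taken from the sample labels.

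Genes were filtered with filterByExpr (minimum count 10, minimum total count 15), scaled by TMM factors and compared by the quasi-likelihood test (glmQLFTest) of edgeR 4.0.16 under R 4.3.3. Adjusted p-values follow Benjamini and Hochberg over all 13400 genes that passed the filter. CPM values are TMM-normalized, and levels between genes are compared as CPM per kilobase of exon. The per-mouse log2 CPM has a prior count of 2. Pairs of mice of one genotype differed by more than the sampling noise (chi-square per degree of freedom between 11.9 and 89.7). The fit was tested on simulated data.

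Members and gene lists were chosen with earlier results of these data known. The genes named are members with an unadjusted p under 0.05 or without overlap of the groups, the 9 TOP members, the most abundant member of each role, the 5 most and 5 least abundant, those not tested, those with 1 mouse far from the other 3, and in each other pathway list the 3 genes with the smallest p. Further members (Eef1akmt4, Eef2kmt, Eif1b, Eif2ak3, Eif2s1, Eif2s2, Eif3a, Eif3b, Eif3c, Eif3d, Eif3j1, Eif3l, Eif4a1, Eif4a2, Eif4e, Eif5, Eif5b, Eif6), Tat and Csf1r were chosen to be named with their values in view. Alternatives were DESeq2 1.42.0, the edgeR likelihood ratio test, limma-voom (limma 3.58.1), RLE and upper quartile normalization, library size alone, 2 other filters, a principal component as a covariate, and leaving out each mouse. Transcript starts came from RefSeq tables of GRCm38.p6, in which 50 of the 66 members had an entry.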

Additional observations from a re-analysis of the deposited data

Results flagged for a closer look

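In 122 groups of 4 mice (61 members, both genotypes), 6 had 1 mouse far from the other 3 by Dixon's criterion, where 6.1 would be expected by chance. Eif2b4 and Eif2b5, subunits of eIF2B, were high in Mc1r LKO mouse 182 at 37.5 and 44.8 CPM, beside 28.6 to 30.0 and 33.2 to 34.8 CPM in the other Mc1r LKO mice. Eif2b1, another subunit of this complex, was high in Control mouse 181 at 27.5 CPM. Control mouse 193 was low in Eif5a at 296.9 CPM and in Eef1e1 at 6.12 CPM. Mc1r LKO mouse 157 was low in Eef1d at 76.9 CPM and still above every Control mouse.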

How the results depend on the processing

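No paired analysis was possible because the mouse numbers in the labels are not shared between the genotypes. The number of members higher in Mc1r LKO mice at an unadjusted p under 0.05 was 10 in the reported fit, 4 with the edgeR likelihood ratio test, 3 with library size alone and 5 without the filter on low counts, and it ranged from 6 to 8 when a mouse was left out (6 without Mc1r LKO mouse 141). The median log2 fold change of the members was 0.05 with library size alone (40 of 61 above 0), where that of all genes was -0.06, and ranged from 0.06 to 0.13 when a mouse was left out. When a mouse was left out, that of the TOP members ranged from 0.13 to 0.19 and that of the ribosomal proteins from 0.24 to 0.37. With library size alone they were 0.11 and 0.23. In each alternative, 9 of 9 TOP members and 79 of 79 ribosomal protein genes were above 0. Ribosomal protein genes higher at the unadjusted p numbered 65, 31 with library size alone, and between 36 and 73 when a mouse was left out. At the adjusted p the 0 genes of the reported fit became 17 with DESeq2 (3 of them ribosomal protein genes), 8 with the likelihood ratio test and 1 without the filter, and 0 members in each alternative. Over all genes, 517 were higher at the unadjusted p and 226 with library size alone, and between 343 and 642 when a mouse was left out (343 for Control mouse 193). The 384 lower genes became 626 without the filter and 798 with a covariate made from the leading component of the residuals. Where a value moved, the cause was not tested. The member lower at the unadjusted p was Eif4g3 except without Mc1r LKO mouse 141 (edgeR unadjusted p = 0.0531), where it was Eef2k. No fold change of a member at an unadjusted p under 0.05 changed sign. Such members were chosen by that p in the same mice, so that the kept sign adds little.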
